A study of Mus musculus with 23 samples.

Results

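Genes that run DNA replication and mitosis were followed across the receptor genotypes and the treatment. The set holds 46 genes of the 55487 gene identifiers in the count table, found by matching each identifier to its symbol, and all 46 were among the 15748 genes that passed the filter on low counts. They fall into 11 groups by role. The S phase groups are origin licensing (9 genes), the replication fork (4), nucleotide supply (3), chromatin assembly (2) and the S phase cyclins (3). The mitotic groups are the mitotic cyclins and kinases (6), the spindle checkpoint and anaphase (4), the centromere and passenger complex (4), the spindle and cytokinesis (5) and mitotic chromosomes (2). The remaining 4 are cell cycle transcription factors.

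RNA was sequenced from primary mouse embryonic fibroblasts (MEFs) on the FVB/NJ background, treated for 5 h with 10 nM dexamethasone (Dex), a synthetic glucocorticoid, or with vehicle. All cells carried the glucocorticoid receptor (GR) in 1 of 4 homozygous states. GRwt/wt cells had the normal receptor, and GRD/D cells had a missense mutation in its DNA-binding domain. GRL/L cells had a missense mutation at the dimer interface of its ligand-binding domain, and GRD+L/D+L cells had both mutations in the same protein. The GRL and GRD+L alleles were made in mice with CRISPR/Cas9 and then backcrossed, and animals homozygous for either do not survive past birth. Each genotype had 3 cultures, every culture from another animal, which gave 3 libraries in each of the 8 groups except 2 for GRD/D with vehicle, 23 in all. Libraries held about 16453000 to 23117000 counts, and all 10 fibroblast markers passed the filter, with summed levels of 40526 to 65594 CPM, the counts scaled to library size.

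A cell that commits to division first turns on genes through E2F transcription factors, which license origins, supply deoxynucleotides and build the replication fork. Later, FOXM1 and MYB with the DREAM subunits turn on the genes for cyclin B, the spindle and chromosome segregation. Transcript levels of these genes rise and fall with the share of cells in cycle, and in a bulk sample more cycling cells and more RNA per cycling cell cannot be told apart. Fibroblast cultures from separate embryos are known to differ in how fast they divide. Glucocorticoids are known to slow the growth of many cell types.

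The promoters of these genes carry short sequence elements that set the phase of their expression. Windows of 300 bases, from 250 before to 50 after the start site, were taken from RefSeq on GRCm38.p6 for 38 of the 46 genes. Ccne2, Tpx2, Foxm1, Aurkb, Gins1, Ccna2, Mcm4 and Gins2 were not matched. Motifs were searched on both strands: the cell cycle homology region (CHR), spelled TTTGAA while the other form is TTCGAA, the CCAAT box, and E2F sites. An E2F site was spelled TTCCCGC, while the second spelling was TTCGCGC, the third was written TTGGCGC, and the last spelling searched was TTGCCGC. On the other strand the CCAAT box reads ATTGG, which can share bases with an E2F site. The windows below belong to the most abundant gene by mean CPM of the mitotic cyclins and kinases (Cdk1), of the spindle checkpoint group (Cdc20) and of origin licensing (Mcm7, 1 of its 2 listed start sites), followed by the genes that passed a test between genotypes, E2f8 and Rrm2. Capitals mark CHR, CCAAT and E2F matches, and adjoining matches run together. Cdk1 lies at chr10:69352863-69353162 on the minus strand, Cdc20 at chr4:118437294-118437593 on the minus strand, Mcm7 at chr5:138171834-138172133 on the minus strand, E2f8 at chr7:48881547-48881846 on the minus strand and Rrm2 at chr12:24708004-24708303 on the plus strand.
Cdk1: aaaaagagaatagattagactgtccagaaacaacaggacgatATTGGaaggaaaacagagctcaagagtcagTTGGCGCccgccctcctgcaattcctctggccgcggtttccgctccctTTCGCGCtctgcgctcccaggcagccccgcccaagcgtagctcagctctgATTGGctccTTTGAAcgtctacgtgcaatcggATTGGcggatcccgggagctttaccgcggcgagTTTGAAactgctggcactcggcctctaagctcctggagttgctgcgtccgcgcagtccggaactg
Cdc20: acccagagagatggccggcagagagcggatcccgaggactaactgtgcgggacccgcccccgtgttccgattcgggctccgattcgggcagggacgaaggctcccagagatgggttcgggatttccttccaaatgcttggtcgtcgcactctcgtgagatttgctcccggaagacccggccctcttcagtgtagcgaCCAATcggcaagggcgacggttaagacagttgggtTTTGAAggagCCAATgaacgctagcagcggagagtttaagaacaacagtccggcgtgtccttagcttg
Mcm7: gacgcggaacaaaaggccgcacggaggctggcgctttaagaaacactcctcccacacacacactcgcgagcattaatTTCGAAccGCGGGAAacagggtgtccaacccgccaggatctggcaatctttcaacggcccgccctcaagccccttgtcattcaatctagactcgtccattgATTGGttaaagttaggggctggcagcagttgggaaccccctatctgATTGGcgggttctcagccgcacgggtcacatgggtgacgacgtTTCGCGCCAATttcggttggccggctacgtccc
E2f8: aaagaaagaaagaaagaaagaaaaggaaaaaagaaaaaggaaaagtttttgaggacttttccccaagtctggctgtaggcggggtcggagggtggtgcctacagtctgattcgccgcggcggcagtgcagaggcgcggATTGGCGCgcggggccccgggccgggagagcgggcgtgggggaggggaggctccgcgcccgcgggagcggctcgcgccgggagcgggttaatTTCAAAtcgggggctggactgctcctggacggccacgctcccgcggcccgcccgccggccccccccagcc
Rrm2: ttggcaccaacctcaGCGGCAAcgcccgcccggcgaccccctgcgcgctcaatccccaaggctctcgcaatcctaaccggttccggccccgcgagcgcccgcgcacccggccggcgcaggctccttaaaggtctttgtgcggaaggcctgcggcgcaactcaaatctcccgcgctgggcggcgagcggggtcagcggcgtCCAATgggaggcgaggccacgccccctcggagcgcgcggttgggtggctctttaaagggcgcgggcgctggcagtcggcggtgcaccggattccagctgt

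The S phase and the mitotic genes differed in their promoter letters. A CHR stood in 15 of the 19 mitotic genes with a window (78.9%) and in 3 of the 16 S phase genes (18.8%), against 21.7% of the 27025 genes of the table. E2F sites showed the opposite order, in 11 of 16 S phase genes (68.8%) and 3 of 19 mitotic genes (15.8%), against 10.9% of all genes. CCAAT boxes were common to both classes, with 68.8% of S phase and 89.5% of mitotic genes against 41.1% of all genes. In Cdc20 the CHR began 18 bases before the start site, and in Cdk1 the CHRs began 15 and 71 bases before it. The full palindromic glucocorticoid response element was in 0 of the 38 genes with a window and in 3 of the 27025 genes of the table (0.0111%). A match is a description of letters and not a measured site.

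Before any comparison, several libraries stood apart. In GRwt/wt vehicle replicate 1, deviations from the median library tracked GC content over all genes tested (Spearman rho 0.69, against -0.20 to 0.32 in the other 22 libraries), and its best rank correlation with any other library was 0.916, against 0.973 to 0.997. This library had the lowest level of 14 of the 46 genes and the highest of 9. GRwt/wt vehicle replicate 3 had the highest summed level of 14 macrophage markers, 5586 CPM, against 9.60 to 1936 CPM elsewhere. Over all genes, deviations also tracked exon length, positively in all 12 libraries carrying the L mutation (rho 0.11 to 0.26) and negatively in all 11 GRwt/wt and GRD/D libraries (rho -0.37 to -0.11), so that length and these genotypes cannot be told apart. The 5 endothelial, 6 epithelial, 5 neural and 6 skeletal muscle markers summed to at most 20.7, 5.79, 172 and 210.0 CPM, and the muscle maximum was in GRwt/wt vehicle replicate 1. Medians that use the vehicle arm of GRwt/wt are given below with and without replicates 1 and 3, which leaves replicate 2 as the only library of that arm.

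Per kilobase of exon, Pcna, the sliding clamp of DNA polymerases, had the highest mean level over all libraries (18.2 CPM per kb), ahead of Mcm4, a subunit of the replicative helicase (11.5), and Rrm1, the large subunit of ribonucleotide reductase (10.1). The lowest were Cdc6, the helicase loader (0.36), and Mybl2, which codes for B-MYB (0.45). Within a gene, the highest library exceeded the lowest by 1.89-fold in Cdk1 and by 89.5-fold in Kif11, the motor that separates spindle poles, with a median of 3.73-fold. The Kif11 extreme rested on 6 counts in GRwt/wt vehicle replicate 1. Levels of Pcna, Tyms, Ccnb1 and Ccnb2 are less certain because the annotation holds named pseudogenes of each. Exons of 15 members overlap another gene, among them Mcm7, E2f8 and Cdc20, and no strand setting was given for the counting.

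**Figure D1:**
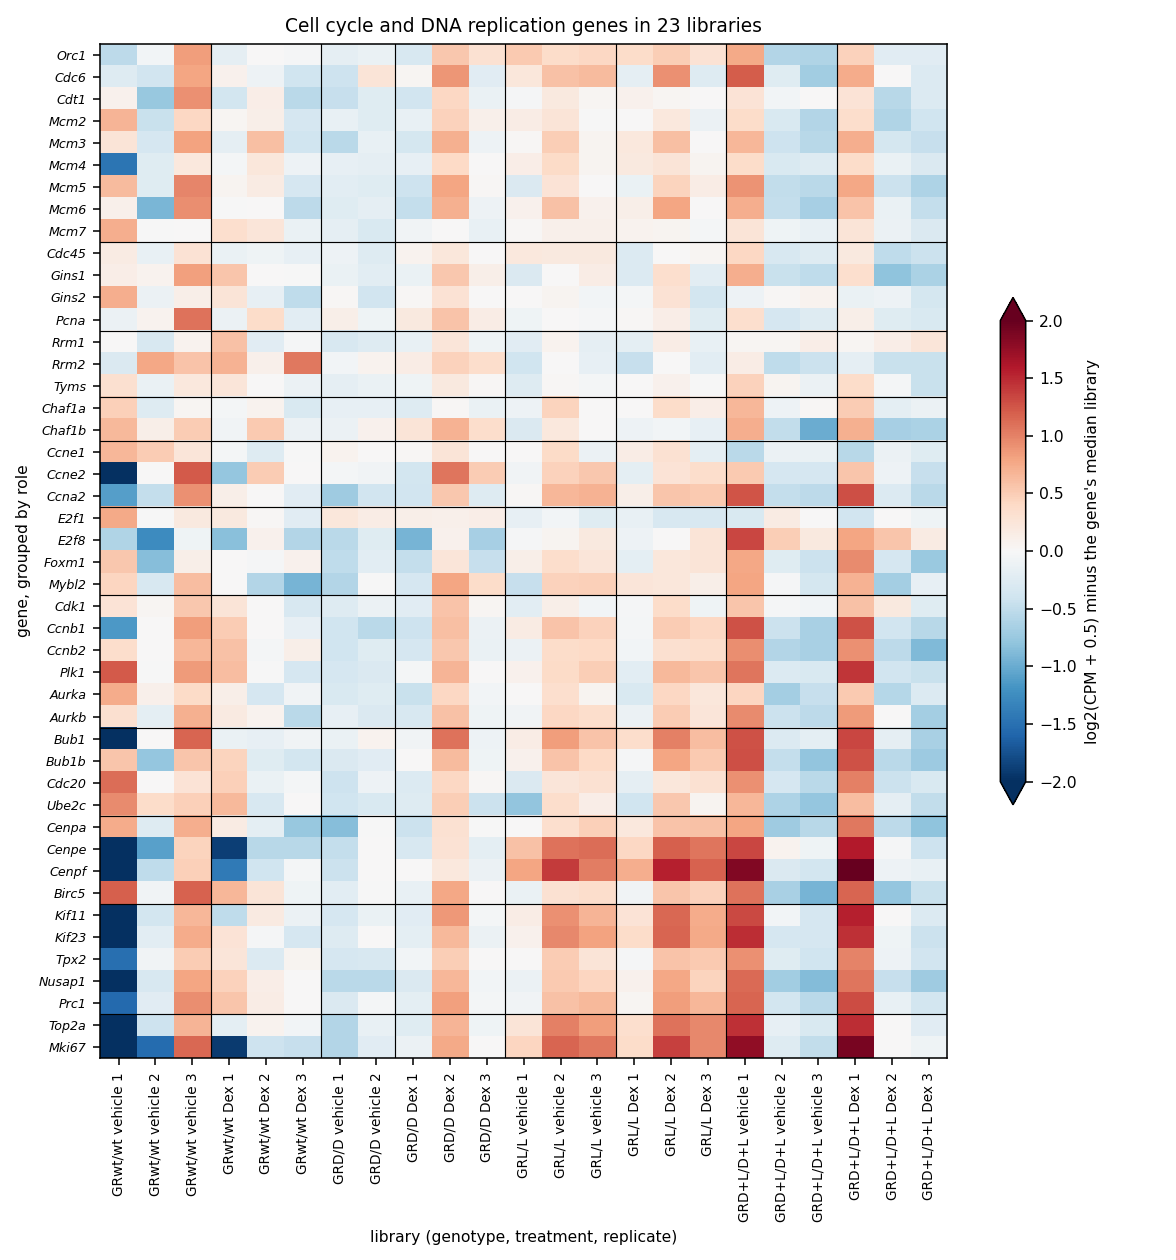
Each row is a gene and each column a library; the colour gives log2(CPM + 0.5) minus the gene's median library, cut off at -2 and 2, and black lines separate roles and groups. GRD+L/D+L replicate 1 is high with vehicle and with Dex, GRwt/wt vehicle replicate 3 and GRD/D Dex replicate 2 are high nearly throughout, and GRwt/wt vehicle replicate 1 is low for Kif11, Top2a, Cenpe and Mki67 but high for Cdc20 and Mcm7.

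In both genotypes with the L mutation, the largest differences lay between replicate numbers and not between treatments of the same number. Numbers were taken to pair cultures there because these same counts correlated by number, so this is not an independent result. For a summary of each library, the median over the genes of log2(CPM + 0.5) minus the gene's median library was taken. Among GRD+L/D+L libraries, replicate 1 stood at 0.77 with vehicle and 0.73 with Dex, replicate 2 at -0.31 and -0.18, and replicate 3 at -0.41 and -0.40. In GRL/L, replicate 1 stood at 0.00 and -0.0083, replicate 2 at 0.38 and 0.42, and replicate 3 at 0.26 and 0.24. In both genotypes the order of the replicates with vehicle was the order with Dex. GRwt/wt libraries stood at 0.14, -0.20 and 0.64 with vehicle and at 0.097, 0.00 and -0.15 with Dex. GRD/D libraries stood at -0.29 and -0.18 with vehicle and at -0.21, 0.54 and -0.038 with Dex. In GRwt/wt the highest vehicle library and the lowest Dex library had the same number.

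The spread between replicates was wider for these genes than for genes in general. In GRD+L/D+L the median SD of log2 CPM over the 46 genes was 0.80 with vehicle and 0.76 with Dex, against 0.25 and 0.25 over all genes tested. It was 0.43 against 0.16 in GRD/D with Dex, 0.27 against 0.14 in GRL/L with vehicle and 0.65 against 0.56 in GRwt/wt with vehicle. In GRD/D with vehicle, with 2 libraries, the medians were 0.11 and 0.11. Macrophage markers also varied between cultures. They summed to 9.60 to 93.2 CPM in GRD+L/D+L, to 342 to 848 CPM for GRL/L, to 305 to 1936 CPM in GRD/D with the maximum in Dex replicate 2, and to 19.1 to 5586 CPM in GRwt/wt. All 14 of these markers passed the filter and 0 of them were at 0 in every library. Their part in the levels of the cycle genes was not tested.

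The mitotic genes spread more widely than the S phase genes. In GRD+L/D+L replicate 1 the mitotic class stood at 1.14 with vehicle and 1.27 with Dex and the S phase class at 0.46 and 0.37. In GRL/L replicates 2 and 3 the mitotic class stood at 0.46 to 0.66 in both treatments and the S phase class at -0.0071 to 0.27. In GRwt/wt vehicle replicate 1 the mitotic class stood at -1.16 and the S phase class at 0.13, while no other library had the mitotic class below -0.49. Roles within the mitotic class went both ways in that library, with mitotic cyclins and kinases at 0.34, spindle checkpoint and anaphase genes at 0.75, spindle and cytokinesis genes at -2.35 and mitotic chromosome genes at -3.79.

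**Figure D2:**
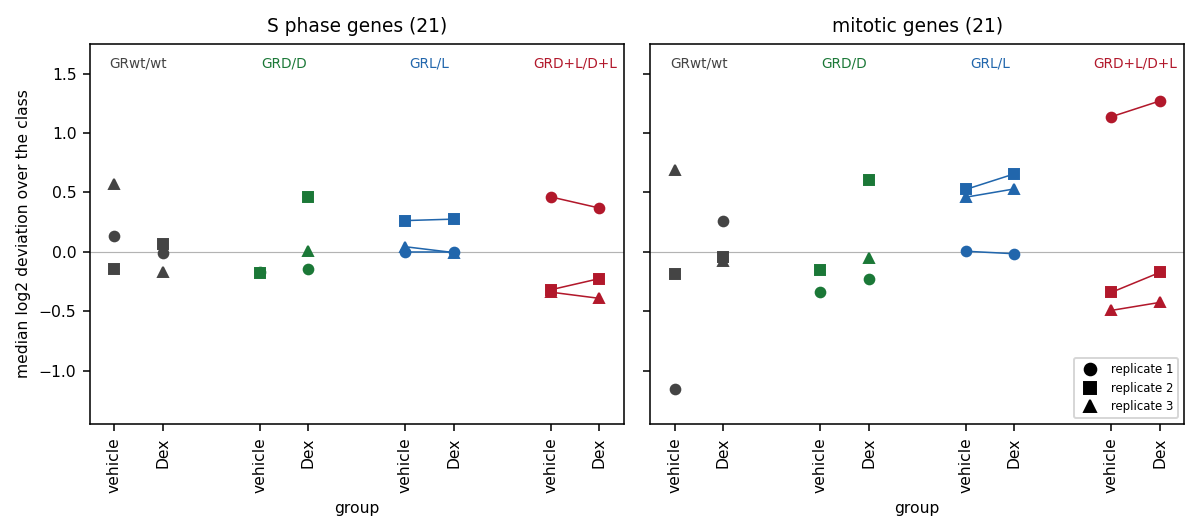
Each point is a library, placed by the median over the 21 S phase or 21 mitotic genes of log2(CPM + 0.5) minus the gene's median library. Lines join vehicle and Dex libraries of the same number in both genotypes with the L mutation, where numbers were taken, from these same counts, to pair the libraries. The lines are nearly flat, from 1.14 to 1.27 for mitotic genes in the highest culture, whereas the cultures lie far apart.

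Origin licensing opens S phase. Mcm7, a helicase subunit and the most abundant gene of the group, was at 68.0, 40.4 and 41.3 CPM in GRwt/wt, 36.0 and 33.0 in GRD/D, 41.6, 43.9 and 44.0 in GRL/L, and 49.1, 38.3 and 36.9 in GRD+L/D+L with vehicle. With Dex its levels were 51.7, 48.4 and 37.2 CPM in GRwt/wt, 39.0, 40.9 and 36.7 in GRD/D, 42.7, 42.3 and 39.8 in GRL/L, and 48.8, 37.7 and 33.2 in GRD+L/D+L. The high value was GRwt/wt vehicle replicate 1, and the other libraries lay within 33.0 to 51.7 CPM. Pcna was at 37.8, 43.2 and 87.7 CPM in GRwt/wt, 44.8 and 38.5 in GRD/D, 38.6, 41.1 and 40.3 in GRL/L, and 52.1, 32.3 and 34.4 in GRD+L/D+L with vehicle. Dex-treated cells held Pcna at 37.9, 53.3 and 35.4 CPM in GRwt/wt, 47.1, 61.4 and 45.5 in GRD/D, 41.9, 44.9 and 34.7 in GRL/L, and 44.6, 34.6 and 33.2 in GRD+L/D+L. The vehicle maximum was GRwt/wt replicate 3, above every Dex library.

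Nucleotide supply depends on ribonucleotide reductase. Its large subunit Rrm1 was at 111, 88.4 and 116 CPM in GRwt/wt, 88.3 and 92.8 in GRD/D, 94.3, 116 and 97.9 in GRL/L, and 114, 114 and 122 in GRD+L/D+L with vehicle. With Dex, Rrm1 was at 167, 94.4 and 109 CPM in GRwt/wt, 100.3, 130.4 and 105 in GRD/D, 96.3, 123 and 99.7 in GRL/L, and 113, 122 and 131 in GRD+L/D+L. GRwt/wt Dex replicate 1 was the highest, and the next highest library was GRD+L/D+L Dex replicate 3. Chaf1a, the large subunit of the chromatin assembly factor that loads histones behind the fork, was at 18.7, 11.1 and 13.8 CPM in GRwt/wt, 11.8 and 11.8 in GRD/D, 12.4, 18.5 and 13.4 in GRL/L, and 21.5, 12.4 and 13.6 in GRD+L/D+L with vehicle. Under Dex, Chaf1a was at 13.0, 14.0 and 10.7 CPM in GRwt/wt, 11.04, 13.5 and 12.2 in GRD/D, 13.4, 17.3 and 14.6 in GRL/L, and 19.2, 11.7 and 12.3 in GRD+L/D+L. The high libraries were GRwt/wt vehicle replicate 1, GRL/L replicate 2 and GRD+L/D+L replicate 1.

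In mitosis, Cdk1, the kinase that drives entry into it, was at 31.6, 26.7 and 38.2 CPM in GRwt/wt, 21.7 and 24.1 in GRD/D, 22.4, 28.3 and 25.1 in GRL/L, and 38.4, 25.7 and 25.0 in GRD+L/D+L with vehicle. With Dex, Cdk1 was at 31.4, 26.1 and 20.8 CPM in GRwt/wt, 22.2, 39.1 and 26.8 in GRD/D, 25.6, 33.7 and 24.6 in GRL/L, and 39.3, 30.0 and 22.0 in GRD+L/D+L. GRD+L/D+L replicate 1 in both treatments, GRwt/wt vehicle replicate 3 and GRD/D Dex replicate 2 were the highest, and both GRD/D vehicle libraries lay below the 3 GRwt/wt vehicle libraries. Cdc20, the activator of the anaphase-promoting complex, was at 31.4, 14.3 and 17.4 CPM in GRwt/wt, 10.6 and 13.3 in GRD/D, 11.5, 17.1 and 17.7 in GRL/L, and 27.5, 11.2 and 9.71 in GRD+L/D+L with vehicle. After Dex, Cdc20 was at 20.1, 13.0 and 13.9 CPM in GRwt/wt, 11.7, 19.3 and 14.6 in GRD/D, 12.6, 16.8 and 17.8 in GRL/L, and 29.3, 10.5 and 11.5 in GRD+L/D+L. GRwt/wt vehicle replicate 1 and GRD+L/D+L replicate 1 were the highest. Tpx2, which activates Aurora A on the spindle, was at 7.50, 21.2 and 31.9 CPM in GRwt/wt, 17.6 and 17.8 in GRD/D, 22.3, 31.8 and 26.8 in GRL/L, and 42.2, 18.7 and 16.8 in GRD+L/D+L with vehicle. Under Dex, Tpx2 was at 26.3, 18.4 and 23.1 CPM in GRwt/wt, 21.3, 31.4 and 22.3 in GRD/D, 22.0, 33.5 and 32.3 in GRL/L, and 44.8, 20.8 and 17.0 in GRD+L/D+L. Here GRwt/wt vehicle replicate 1 was the lowest library and GRD+L/D+L replicate 1 again the highest.

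Top2a, the topoisomerase that untangles sister chromatids, was at 2.70, 32.0 and 68.9 CPM in GRwt/wt, 28.3 and 38.3 in GRD/D, 51.2, 85.8 and 76.4 in GRL/L, and 118, 38.0 and 34.4 in GRD+L/D+L with vehicle. With Dex, Top2a was at 37.2, 44.6 and 40.8 CPM in GRwt/wt, 35.9, 68.7 and 40.0 in GRD/D, 54.1, 91.2 and 83.1 in GRL/L, and 119, 42.6 and 36.2 in GRD+L/D+L. Its levels in GRD+L/D+L replicate 1 were nearly the same in both treatments and far above replicates 2 and 3. Mki67, the proliferation marker that coats mitotic chromosomes, was at 1.93, 11.5 and 76.8 CPM in GRwt/wt, 22.6 and 29.0 in GRD/D, 46.1, 77.3 and 71.8 in GRL/L, and 118, 28.6 and 24.1 in GRD+L/D+L with vehicle. Dex-treated libraries had Mki67 at 8.69, 25.7 and 24.8 CPM in GRwt/wt, 31.5, 58.0 and 34.3 in GRD/D, 44.1, 89.3 and 67.2 in GRL/L, and 129, 34.2 and 32.1 in GRD+L/D+L. Cenpe, a kinetochore motor, was at 0.883, 5.85 and 18.0 CPM in GRwt/wt, 9.26 and 13.0 in GRD/D, 19.9, 28.3 and 28.8 in GRL/L, and 33.7, 13.8 and 12.2 in GRD+L/D+L with vehicle. With Dex, Cenpe was at 3.18, 8.67 and 8.68 CPM in GRwt/wt, 10.3, 16.0 and 11.3 in GRD/D, 17.6, 30.5 and 27.9 in GRL/L, and 39.9, 12.9 and 9.69 in GRD+L/D+L. All 6 GRL/L libraries lay above all 5 GRD/D libraries for Cenpe, and GRwt/wt vehicle replicate 1 was the lowest library.

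**Figure D3:**
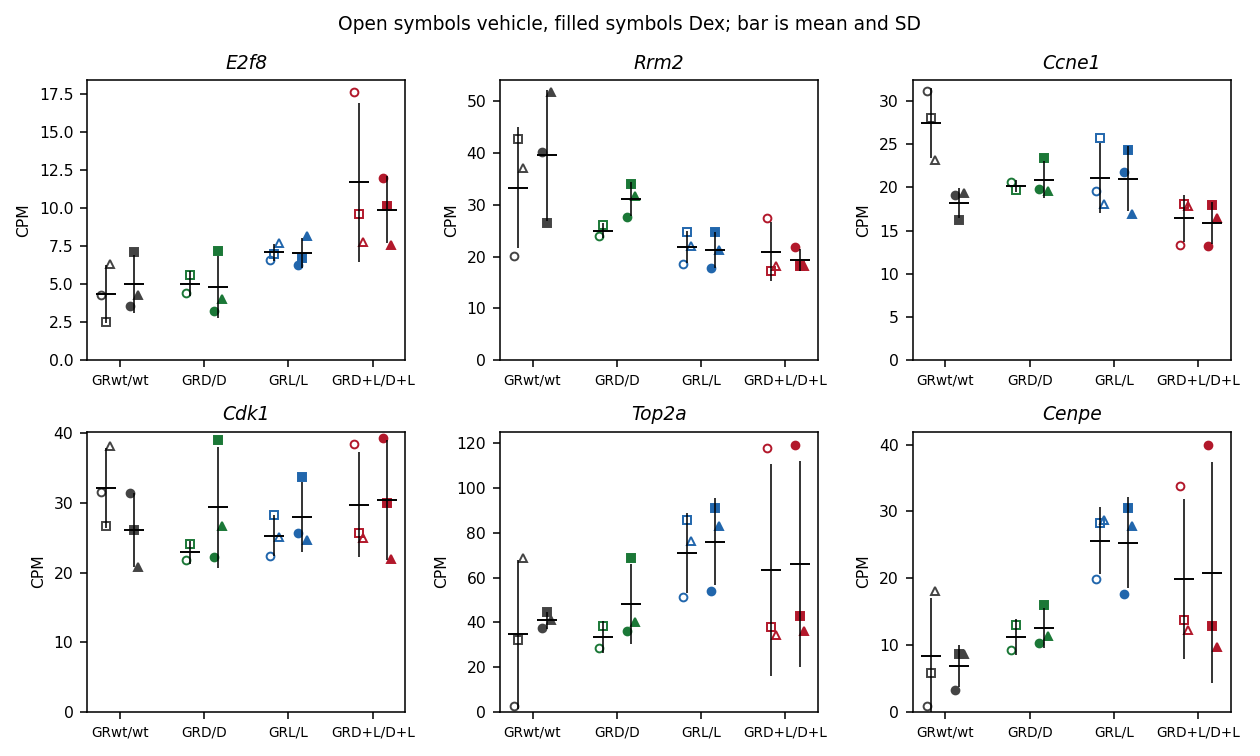
CPM of 6 genes by genotype, open symbols vehicle and filled symbols Dex; circles, squares and triangles are replicates 1, 2 and 3, and bars give the mean and SD (n = 3, or 2 for GRD/D vehicle). GRD+L/D+L replicate 1 lies at 118 CPM with vehicle and 119 CPM with Dex for Top2a, above replicates 2 and 3, E2f8 is highest in GRD+L/D+L vehicle, and Rrm2 with Dex is lower in all libraries with the L mutation than in all GRwt/wt libraries.

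The first question was whether Dex altered these genes in each genotype. It was tested with edgeR's quasi-likelihood method on all 23 libraries, and calling a gene took an adjusted p (Benjamini-Hochberg) up to 0.05 together with an absolute log2 fold change (LFC) of 1 or more. Of the 46 genes, 0 were called in any genotype. Over all genes tested, 0.159% were called in GRwt/wt, and the share was 0% for GRD/D, 0% for GRL/L and 0% for GRD+L/D+L. With edgeR, 1 of the 46 was under an unadjusted p of 0.05 in GRwt/wt (2.17%, against 15.6% of all genes) and 0 in the other genotypes (against 0.978%, 0.273% and 0.343% of all genes). DESeq2 also called 0 of the 46 in each genotype. Among all genes it called 279 for GRwt/wt, 5 for GRD+L/D+L, 2 for GRD/D and 0 for GRL/L.

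In GRwt/wt the median LFC of the 46 genes was -0.28, against -0.0093 over all genes, with 11 above 0. Values ran from -0.96 for Mybl2 (SE 0.52, edgeR adjusted p = 0.389) to 0.38 for Mcm4 (SE 0.30, edgeR adjusted p = 0.585). Mcm4 was at 0.024 without vehicle replicate 1 and at 0.80 without vehicle replicate 3, and Mybl2 at -0.19 without both. All 5 spindle and cytokinesis genes had positive values, 0.13 to 0.37, and all 4 replication fork genes had negative values, -0.42 to -0.21. The median level of the spindle and cytokinesis genes was -2.35 in vehicle replicate 1, which stood apart, against -0.22 and 0.74 in the other vehicle libraries and 0.28, 0.13 and 0.00 with Dex. Ccne1, the cyclin that partners CDK2 at the start of S phase, was the gene under an unadjusted p of 0.05. It was at 31.2, 28.0 and 23.2 CPM in GRwt/wt, 20.6 and 19.7 in GRD/D, 19.5, 25.7 and 18.0 in GRL/L, and 13.3, 18.1 and 17.8 in GRD+L/D+L with vehicle. With Dex, Ccne1 was at 19.1, 16.2 and 19.3 CPM in GRwt/wt, 19.8, 23.4 and 19.5 in GRD/D, 21.8, 24.3 and 16.9 in GRL/L, and 13.2, 17.9 and 16.4 in GRD+L/D+L. All 3 GRwt/wt Dex libraries lay below all 3 vehicle libraries, and the LFC was -0.59 (SE 0.18, edgeR adjusted p = 0.165). With the replicate block it was -0.59 as well, with an edgeR adjusted p of 0.0435, below the fold threshold. That block pairs libraries by number, although numbers did not pair them in GRwt/wt. The direction of the median hung on 1 library: without GRwt/wt vehicle replicate 3 it was 0.10, with 0 genes called, and without vehicle replicates 1 and 3 it was 0.17.

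In GRD/D the median was 0.37, against 0.0030 over all genes, with 44 of 46 above 0. Mybl2 had the highest value, 0.77 (SE 0.58, edgeR adjusted p = 1), and E2f1, an activator of S phase genes, the lowest, -0.063 (SE 0.20, edgeR adjusted p = 1). Dex replicate 2 carried much of this: it was above vehicle replicate 2 for 45 of 46 genes, by a median of 0.68, and without it the median LFC was 0.14. These 2 libraries were not a pair by their deviations: over all genes vehicle replicate 2 correlated at -0.18 with Dex replicate 2 and 0.42 with Dex replicate 3. Dex replicate 2 also had the highest macrophage marker sum of the genotype, 1936 CPM, against 305 to 1091 CPM in the others.

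In GRL/L the median was 0.012 with 25 of 46 above 0, and LFCs ran from -0.30 for Cdc45, which completes the active helicase (SE 0.23, edgeR adjusted p = 1), to 0.19 for Cenpa, the centromeric histone H3 (SE 0.49, edgeR adjusted p = 1). For GRD+L/D+L the median was 0.029 with 27 above 0. LFCs there ran from -0.40 for Gins1, another helicase component (SE 0.46, edgeR adjusted p = 1), to 0.19 for Mki67 (SE 0.87, edgeR adjusted p = 1). The median there was -0.54 without Dex replicate 1 and 0.63 without vehicle replicate 1. Directions of Gins1 and Mki67 turned when replicate 1 of a treatment was left out, and that of Mki67 also without vehicle replicate 2 or 3.

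Libraries of both genotypes with the L mutation were taken as paired by number, from correlations in these same counts. Their response was read within these pairs, whose closeness follows in part from that choice. The median Dex minus vehicle difference over the 46 genes was 0.046, 0.091 and -0.044 in the 3 GRL/L pairs and -0.013, 0.065 and -0.024 in the 3 GRD+L/D+L pairs. With culture as a block and only these 12 libraries, a fit chosen after seeing the data, the median SE per gene was 0.092 for GRL/L and 0.097 for GRD+L/D+L, against 0.44 and 0.44 in the fit of all 23 libraries without the block and 0.27 and 0.28 in that of all 23 with it. In that fit LFCs ran from -0.33 (Cdc6) to 0.19 (Cenpa) for GRL/L and from -0.41 (Gins1) to 0.23 (Mki67) in GRD+L/D+L. Again 0 of the 46 were called in either genotype by edgeR, and 2 and 3 were under an unadjusted p of 0.05 (4.35% and 6.52%, against 3.37% and 8.88% of the 14676 genes tested). Same-numbered libraries had medians of 0.088 and 0.68 in GRD/D and of -0.097, 0.26 and -0.81 in GRwt/wt, and in neither genotype did numbers pair the libraries.

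**Figure D4:**
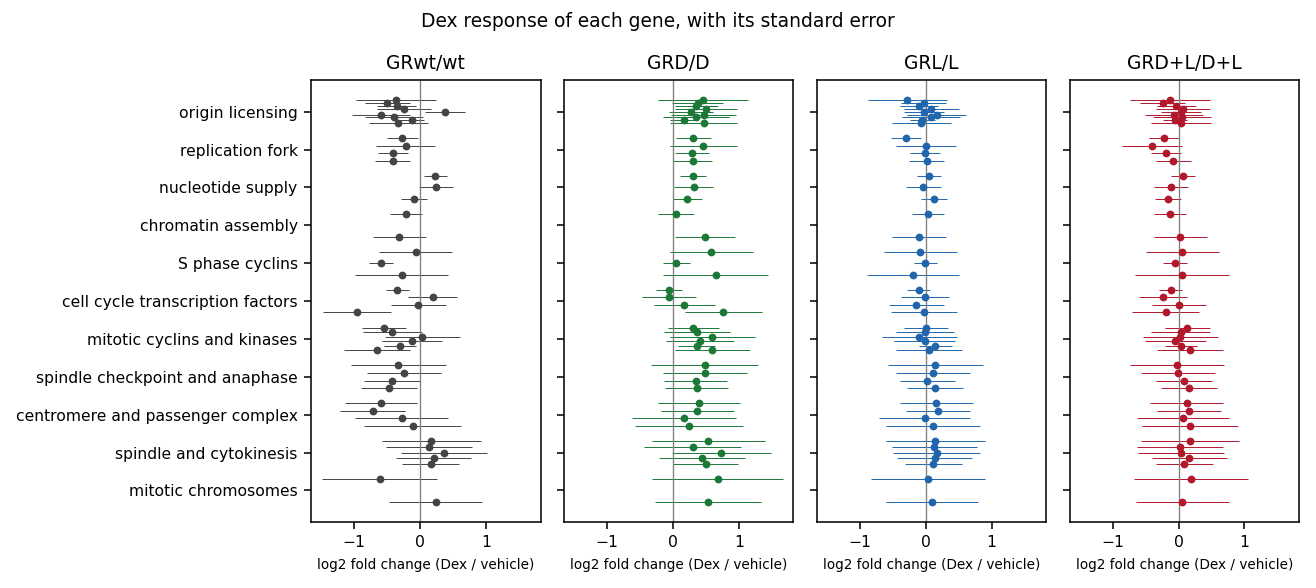
Points are the LFC of each of the 46 genes, Dex over vehicle, by role and genotype, and bars are the standard error from the fit without a block. Values centre near 0 with the L mutation (medians 0.012 and 0.029), lie mostly above 0 in GRD/D (44 of 46) and mostly below 0 in GRwt/wt (35 of 46), and 0 genes were called.

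Whether the response differed from GRwt/wt was tested as an interaction. The median difference in response over the 46 genes was 0.67 for GRD/D, 0.24 for GRL/L and 0.24 for GRD+L/D+L. Of the 46, 0 were called for GRD/D (0% of all genes), 0 for GRL/L (0.0254%) and 0 for GRD+L/D+L (0.0254%). The edgeR test had 2, 1 and 1 of them under an unadjusted p of 0.05 (4.35%, 2.17% and 2.17%, against 7.11%, 6.29% and 5.05% of all genes). DESeq2 called 0 of the 46 in each, and 10, 19 and 19 of all genes. With the replicate block, 11, 3 and 4 were under an unadjusted p of 0.05 (23.9%, 6.52% and 8.70%, against 11.7%, 11.9% and 10.0% of all genes), and 0 were called. That block joins GRwt/wt and GRD/D libraries by numbers that did not pair them. These comparisons share the GRwt/wt libraries, and without GRwt/wt vehicle replicates 1 and 3 the medians were 0.21, -0.16 and -0.21. The highest difference was that of Mybl2 in GRD/D, 1.73 (SE 0.78, edgeR adjusted p = 0.692) and in GRL/L, 0.93 (SE 0.72, edgeR adjusted p = 0.878), and that of Cenpa in GRD+L/D+L, 0.88 (SE 0.69, edgeR adjusted p = 0.977). The lowest were E2f8 in GRD/D, -0.25 (SE 0.56, edgeR adjusted p = 0.948), Mcm4 in GRL/L, -0.40 (SE 0.43, edgeR adjusted p = 0.911) and E2f8 in GRD+L/D+L, -0.43 (SE 0.52, edgeR adjusted p = 0.977). With GRwt/wt vehicle replicates 1 and 3 left out, the Mybl2 differences were 0.95 and 0.16, that of Cenpa was 0.12, those of E2f8 were -1.03 and -1.21, and that of Mcm4 was -0.29.

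A cell cycle gene outside the set did respond. Wee1 codes for the kinase that holds CDK1 inactive before mitosis, and it stood in the 61 further cell cycle genes examined (G1 cyclins and kinases, CDK inhibitors, Rb family and DREAM, other E2Fs, checkpoint and CDC25, other replication, and APC/C). With vehicle, Wee1 was at 14.6, 19.3 and 19.5 CPM in GRwt/wt, 19.5 and 22.3 in GRD/D, 23.9, 26.5 and 22.5 in GRL/L, and 19.6, 22.5 and 19.8 in GRD+L/D+L. With Dex, Wee1 was at 54.0, 37.2 and 47.8 CPM in GRwt/wt, 26.9, 24.0 and 28.3 in GRD/D, 24.1, 25.4 and 22.1 in GRL/L, and 17.4, 19.7 and 21.5 in GRD+L/D+L. Every GRwt/wt Dex library lay above every other library. Wee1 rose in GRwt/wt with an LFC of 1.38 (SE 0.15, edgeR adjusted p = 0.000154), the only call among the 61. Its LFC was 0.34 for GRD/D, -0.026 for GRL/L and -0.079 for GRD+L/D+L. The response was lower than in GRwt/wt by edgeR for GRL/L (difference -1.40, adjusted p = 0.0148) and for GRD+L/D+L (difference -1.46, adjusted p = 0.0103), and with the replicate block these adjusted p-values were 0.0775 and 0.0734. Over all alternatives the difference ran from -1.54 to -1.28 for GRL/L and from -1.59 to -1.33 for GRD+L/D+L, while the adjusted p rose above 0.05 in 11 and 5 of 22 alternatives. With only the genotypes compared in the fit it was 0.434 for GRL/L and 1.00 for GRD+L/D+L, without the filter it was 0.0716 and 0.0582, and among single libraries left out it reached 0.0740 for GRL/L and, without vehicle replicate 2, 0.0528 for GRD+L/D+L. In GRD/D the difference was -1.04 (edgeR adjusted p = 0.471, DESeq2 adjusted p = 0.00838). Fitted on the GRwt/wt libraries alone, the Wee1 response had an adjusted p of 0.97 at an LFC of 1.39.

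Genotypes were then compared in the same treatment. In vehicle, 0 of the 46 were called in GRD/D against GRwt/wt (0.00635% of all genes), 0 for GRL/L (7.78%) and 1 for GRD+L/D+L (8.32%). By edgeR, 2, 5 and 4 of the 46 were under an unadjusted p of 0.05 (4.35%, 10.9% and 8.70%, against 12.4%, 37.1% and 35.6% of all genes). DESeq2 called 0, 0 and 1 of the 46, and 28, 1582 and 1708 of all genes. Median LFCs were -0.44, -0.061 and -0.15, against -0.065, -0.048 and -0.048 over all genes. Without GRwt/wt vehicle replicates 1 and 3 they were -0.058, 0.42 and 0.33.

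The call in GRD+L/D+L was E2f8, an atypical E2F that represses E2F targets late in S phase (chr7:48866429-48881596, minus strand, GRCm38; its exons overlap Gm2788 on the other strand). With vehicle, E2f8 was at 4.25, 2.52 and 6.30 CPM in GRwt/wt, 4.43 and 5.59 in GRD/D, 6.61, 6.94 and 7.71 in GRL/L, and 17.6, 9.60 and 7.77 in GRD+L/D+L. With Dex, E2f8 was at 3.54, 7.12 and 4.31 CPM in GRwt/wt, 3.26, 7.14 and 4.02 in GRD/D, 6.24, 6.69 and 8.14 in GRL/L, and 12.0, 10.1 and 7.57 in GRD+L/D+L. All GRD+L/D+L libraries lay above all GRwt/wt libraries in either treatment, and replicate 1 was the highest. E2f8 rose in GRD+L/D+L vehicle with an LFC of 1.42 (SE 0.37, edgeR adjusted p = 0.0149). The other comparisons of E2f8 were 0.20 in GRD/D and 0.70 in GRL/L with vehicle, and 0.98 in GRD+L/D+L with Dex (SE 0.37, edgeR adjusted p = 0.134). Without GRD+L/D+L vehicle replicate 1 the call was lost (LFC 1.03, edgeR adjusted p = 0.0672), and 4 other genes were then called lower, namely Chaf1b, Aurka, Ube2c and Birc5 (8.70%, against 4.36% of all genes called lower and 8.22% called in either direction in that fit). With only the 2 genotypes in the fit the adjusted p was 0.105. Without GRwt/wt vehicle replicates 1 and 3 the LFC was 2.19, with replicate 2, the lowest library for E2f8, as the only reference.

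By adjusted p alone, with no fold threshold, 1 further gene passed in each of the L genotypes, beside 23% of all genes for GRL/L and 20.4% for GRD+L/D+L. It was E2f1 in GRL/L (LFC -0.51, SE 0.18, edgeR adjusted p = 0.0446), while Ccne1 did so for GRD+L/D+L (LFC -0.74, SE 0.18, edgeR adjusted p = 0.0096). E2f1 with vehicle was at 53.0, 30.9 and 35.6 CPM in GRwt/wt, 36.4 and 34.7 in GRD/D, 27.9, 29.9 and 26.3 in GRL/L, and 25.1, 35.2 and 31.2 in GRD+L/D+L. With Dex, E2f1 was at 35.6, 31.9 and 26.5 CPM in GRwt/wt, 34.0, 33.6 and 34.4 in GRD/D, 28.0, 24.9 and 24.9 in GRL/L, and 23.7, 31.3 and 29.3 in GRD+L/D+L. The 3 GRL/L vehicle libraries lay below the 3 GRwt/wt vehicle libraries for E2f1, and so did the GRD+L/D+L libraries for Ccne1, whereas with Dex the groups overlapped for both. Without GRwt/wt vehicle replicate 1, the highest library for E2f1, its LFC was -0.25 (edgeR adjusted p = 0.223), without replicates 1 and 3 it was -0.16, and with the replicate block 0 genes passed in GRL/L. LFCs with Dex were -0.27 for E2f1 (GRL/L) and -0.20 for Ccne1 in GRD+L/D+L.

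Apart from E2f8, the highest and lowest values in vehicle fell to mitotic genes. In GRL/L, Cenpe had the highest LFC, 1.63 (SE 0.72, edgeR adjusted p = 0.107), and Birc5, the survivin subunit of the chromosomal passenger complex, the lowest, -0.72 (SE 0.55, edgeR adjusted p = 0.350). Birc5 was lowest in GRD+L/D+L too, at -0.78 (SE 0.55, edgeR adjusted p = 0.317), and its values were 0.25 and 0.20 without GRwt/wt vehicle replicates 1 and 3. In GRD/D, Plk1, the polo-like kinase of mitotic entry, was lowest at -1.14 (SE 0.58, edgeR adjusted p = 0.423), or -0.35 without GRwt/wt vehicle replicates 1 and 3, and Cenpe highest at 0.43 (SE 0.78, edgeR adjusted p = 0.782). That Cenpe value was -0.10 without GRwt/wt vehicle replicate 1 and 1.76 without replicate 3, with 0 of these called, and 0.91 without both. Without GRwt/wt vehicle replicate 3, 5 genes were called higher in GRL/L, namely E2f8, Cenpe, Cenpf, Top2a and Mki67, and 3 in GRD+L/D+L, namely E2f8, Cenpe and Mki67. These shares, 10.9% and 6.52%, stood beside 12.2% and 8.64% of all genes called higher in the same fit. These calls rest on GRwt/wt vehicle replicates 1 and 2 as the reference, and replicate 1 held Cenpe at 0.883 CPM and Mki67 at 1.93 CPM.

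With Dex, 0 of the 46 were called in GRD/D against GRwt/wt (0.254% of all genes), 0 for GRL/L (2.59%) and 1 for GRD+L/D+L (2.75%). The edgeR test had 0, 3 and 3 under an unadjusted p of 0.05 (0%, 6.52% and 6.52%, against 11.1%, 22.7% and 20.9% of all genes). DESeq2 called 0, 0 and 1 of the 46, and 283, 778 and 811 of all genes. Median LFCs were 0.18, 0.23 and 0.13, with 33, 36 and 28 of 46 above 0. The vehicle libraries that stood apart do not enter these differences, although they share the estimate of the spread. GRwt/wt Dex replicate 1 does enter them. Among the 22 libraries other than GRwt/wt vehicle replicate 1, it had the highest rho with GC content, 0.32. Its best rank correlation with another library, 0.973, was the lowest of these, and its muscle markers summed to 140 CPM. The medians turned negative without single libraries, to -0.11 for GRD/D without its Dex replicate 2 and to -0.29 for GRD+L/D+L without its Dex replicate 1.

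The call was Rrm2, the small subunit of ribonucleotide reductase, whose supply limits the enzyme in S phase (chr12:24708241-24714146, plus strand, GRCm38). Rrm2 with vehicle was at 20.1, 42.7 and 37.1 CPM in GRwt/wt, 23.9 and 26.1 in GRD/D, 18.7, 24.8 and 22.0 in GRL/L, and 27.5, 17.2 and 18.2 in GRD+L/D+L. With Dex, Rrm2 was at 40.3, 26.6 and 51.8 CPM in GRwt/wt, 27.6, 34.1 and 31.7 in GRD/D, 17.9, 24.8 and 21.2 in GRL/L, and 21.8, 18.1 and 18.1 in GRD+L/D+L. All 6 Dex libraries with the L mutation lay below the 3 of GRwt/wt. Rrm2 fell in GRD+L/D+L with an LFC of -1.03 (SE 0.26, edgeR adjusted p = 0.0344). In GRL/L the LFC was -0.89 (SE 0.26, edgeR adjusted p = 0.0559), and in GRD/D -0.35 (SE 0.26, edgeR adjusted p = 0.750). In vehicle the LFCs were -0.41 in GRD/D, -0.61 for GRL/L (edgeR adjusted p = 0.0990) and -0.67 for GRD+L/D+L (edgeR adjusted p = 0.0792). The call was lost with only the genotypes compared in the fit (LFC -1.02, edgeR adjusted p = 0.270) and without the filter on low counts (edgeR adjusted p = 0.0607). It was also lost without GRwt/wt Dex replicate 1 or 3, without GRD+L/D+L Dex replicate 2 or 3, and with a correction for exon length (adjusted p = 0.0654), while the LFC was -1.02, -0.98, -0.99 and -0.93 without GRwt/wt Dex replicate 1, without GRD+L/D+L Dex replicate 2, without its replicate 3 and with the length correction. Without GRwt/wt Dex replicate 3 the LFC was -0.79 (edgeR adjusted p = 0.164), and without GRwt/wt Dex replicate 2 Rrm2 was called in GRL/L as well (LFC -1.11, edgeR adjusted p = 0.0193).

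Rrm2 stood apart from the rest of nucleotide supply. In GRD+L/D+L against GRwt/wt with Dex, Rrm1 had an LFC of -0.018 and Tyms, thymidylate synthase, of -0.054, and the 4 replication fork genes ran from -0.61 to -0.093. At the other end was Mki67 at 1.72 (SE 0.90, edgeR adjusted p = 0.286) in GRD+L/D+L and 1.07 (SE 0.88, edgeR adjusted p = 0.796) in GRD/D. Top2a, the other gene of mitotic chromosomes, had an LFC of 0.69 in GRD+L/D+L and 0.24 in GRD/D. Leaving out Dex replicate 1 of GRD+L/D+L put Mki67 at 0.76 in that comparison. Without GRwt/wt Dex replicate 1, Mki67 was at 1.37 in GRD+L/D+L and 0.70 in GRD/D. In GRL/L the highest was Cenpe at 1.89 (SE 0.72, edgeR adjusted p = 0.130), or 1.54 without GRwt/wt Dex replicate 1. All 5 spindle and cytokinesis genes had positive LFCs in GRL/L, 0.26 to 0.93, and 8 of 9 origin licensing genes did.

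Exon length moved with these values. Split at the median length of the 46 genes, 4246 bases, the 23 longer genes had a median LFC of 0.49 in GRL/L with Dex and the 23 shorter 0.18, and over all genes tested the medians were 0.13 and -0.17. The medians for GRD+L/D+L with Dex were 0.32 and -0.012, against 0.11 and -0.16 over all genes. Spearman's rho between length and LFC over the 46 genes was 0.50 and 0.57 in these comparisons and 0.63 and 0.68 in vehicle, across genes that share the same libraries and are not independent. With per-library offsets for exon length, chosen after seeing the data, 0 genes were called with Dex in GRD+L/D+L, although the Rrm2 LFC was -0.93 against -1.03, and E2f8 in vehicle kept its call (LFC 1.22, edgeR adjusted p = 0.0352). These offsets left the median LFC over the 46 genes with Dex at 0.25 for GRL/L, against 0.23 without them, and at 0.14 for GRD+L/D+L, against 0.13.

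**Figure D5:**
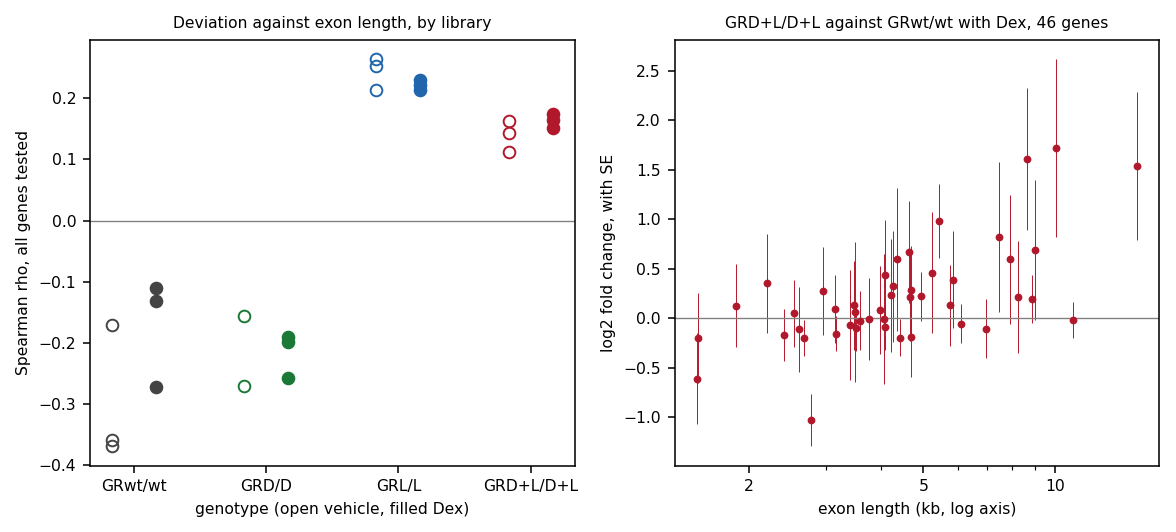
Left, Spearman's rho over all genes tested between a library's deviation from the median library and exon length, open symbols vehicle and filled symbols Dex. Right, LFC with its standard error against exon length for the 46 genes in GRD+L/D+L against GRwt/wt with Dex; rho is positive in all 12 libraries with the L mutation and negative in the other 11, and longer genes tend to higher LFCs (rho 0.57).

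Among the 61 further cell cycle genes, 3 (4.92%, against 7.78% of all genes) were called in GRL/L with vehicle, 1 (1.64%, against 8.32%) in GRD+L/D+L with vehicle and 3 (4.92%, against 2.75%) with Dex. In vehicle, 3 were called higher in GRL/L: Cdc7, the kinase that fires origins (LFC 1.70, edgeR adjusted p = 0.0354), Pole, the leading-strand polymerase (LFC 1.08, edgeR adjusted p = 0.0398), and Anapc1, a scaffold of the anaphase-promoting complex (LFC 1.02, edgeR adjusted p = 0.0026). When GRwt/wt vehicle replicate 1 was left out, 0 of the 3 were called, with LFCs of 1.21 (edgeR adjusted p = 0.0640) for Cdc7, 1.00 (0.0888) for Pole and 0.72 (0.000313) for Anapc1, and with the correction for exon length the LFC of Pole was 0.21 and that of Anapc1 -0.11. Over 16 alternatives the calls of Cdc7, Pole and Anapc1 were lost in 7, 8 and 5. For GRD+L/D+L with vehicle 1 was called, the CDK inhibitor gene Cdkn2b, which fell with vehicle (LFC -1.27, edgeR adjusted p = 0.0077) and with Dex (LFC -1.09, edgeR adjusted p = 0.0430). Cdkn2b was at 109, 164 and 83.6 CPM in GRwt/wt, 118 and 111 in GRD/D, 58.9, 53.4 and 65.9 in GRL/L, and 37.7, 53.3 and 56.5 in GRD+L/D+L with vehicle. Its 3 GRD+L/D+L vehicle libraries lay below the 3 GRwt/wt vehicle libraries. With Dex, E2f2 was also called higher in GRD+L/D+L (LFC 1.35, edgeR adjusted p = 0.0398) and Wee1 lower (LFC -1.25, edgeR adjusted p = 0.000256). By adjusted p alone Wee1 was also lower with Dex in GRD/D (LFC -0.81, edgeR adjusted p = 0.0268) and for GRL/L (LFC -0.96, edgeR adjusted p = 0.0021). The calls of E2f2, Cdkn2b and Wee1 with Dex were lost in 10, 7 and 1 of 15 alternatives, and that of Cdkn2b with vehicle in 3 of 16. Without GRwt/wt Dex replicate 3 the LFC of Cdkn2b with Dex was -0.72 (edgeR adjusted p = 0.228).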

How the data were processed

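In all, 23 libraries from MEF cultures, 3 cultures per genotype, were compared. The authors deposited raw counts per gene: per the submitters' processing notes, reads were aligned to mm10 (GRCm38) with HISAT2 2.1.0 and uniquely mapped reads were counted with featureCounts 2.0.0, and the strand setting is not given in the sources used here. Total counts were about 16453000 to 23117000 per library. Genes passing edgeR's filterByExpr (15748) were scaled by TMM and fitted in edgeR 4.0.16 (R 4.3.3, limma 3.58.1) with 1 mean per group over all 23 libraries and the quasi-likelihood test, with Benjamini-Hochberg adjustment over all genes. Standard errors are the absolute LFC divided by the square root of F. CPM values in the text carry these scaling factors. The fit was tested on simulated counts.

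The 46 genes and all lists were chosen with earlier results of these data known. Genes named were, per comparison, those called, the highest and the lowest LFC, and those passing by adjusted p alone, plus the most abundant gene per role by mean CPM. Rrm1 and Tyms with Dex, Mki67, Kif11 and the genes called after leaving out a library were chosen after their values were seen.

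Pairing was checked from the correlation of deviations from group means between same-numbered libraries. It was 0.289, 0.608 and 0.594 in GRL/L and 0.868, 0.762 and 0.601 in GRD+L/D+L, where numbers were taken to pair. It was 0.537, 0.0127 and -0.0449 in GRwt/wt and 0.262 and -0.183 in GRD/D, and -0.249 to 0.228 between genotypes. Between vehicle replicate 2 and Dex replicate 3 it was 0.524 in GRwt/wt and 0.418 in GRD/D, and between vehicle replicate 3 and Dex replicate 2 of GRwt/wt 0.380. The pairing comes from the data, since the labels do not say that a number marks a culture. Alternatives were DESeq2 1.42.0, other scalings and filters, adjusted p alone, only the genotypes compared, GC content offsets, a replicate block and libraries left out. For Dex responses and interactions the block was genotype and number, which in GRwt/wt and GRD/D joined libraries that numbers did not pair. For genotype comparisons it was the number alone, shared across genotypes, and did not mark a culture. P-values of the main fit rest on a spread estimated over all 23 libraries as if independent, although vehicle and Dex libraries may share a culture. With genotype and number as the block, they rest on the spread of the Dex difference between pairs of libraries.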

Additional observations from a re-analysis of the deposited data

Results flagged for a closer look

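The median Dex response over the 46 genes had opposite directions in GRD/D and GRwt/wt. Measured as each Dex library's median level minus the mean of the vehicle libraries, it was positive in all 3 GRD/D libraries (mean 0.33, 0.022 to 0.77) and negative in all 3 GRwt/wt libraries (mean -0.21, -0.34 to -0.095), a difference of 0.54. The same held for the 4 replication fork genes, with a mean of 0.31 (0.19 to 0.55) against -0.28 (-0.42 to -0.16), a difference of 0.594. Not every role had opposite directions: for spindle and cytokinesis genes the mean was 0.75 (0.61 to 0.89) in GRwt/wt and 0.37 in GRD/D. It was 0.79 (0.23 to 1.11) and 0.55 for mitotic chromosome genes, 0.047 and 0.11 for the S phase cyclins, and 0.17 and 0.22 for nucleotide supply. GRwt/wt vehicle replicate 1, which stood apart, was at -2.35 for spindle and cytokinesis, -3.79 for mitotic chromosomes and -1.10 for the S phase cyclins. Vehicle replicates 2 and 3 were at -0.22 and 0.74, -0.97 and 0.92, and 0.00 and 0.91, so these GRwt/wt means hung on replicate 1. Neither the difference of 0.54 nor that of 0.594 was tested, and 0 of the 46 genes were called in the interaction of single genes. Without GRD/D Dex replicate 2 the median LFC in GRD/D was 0.14, and without GRwt/wt vehicle replicate 3 that in GRwt/wt was 0.10.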

How the results depend on the processing

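Of the alternative values, 217 of 232 counts of called genes, 209 of 219 medians and 555 of 597 single-gene values held, meaning a count within 1.5 times, a median moved by less than the replicate SD, and a single gene with the same direction and side of the threshold. A median could turn sign and still hold by this rule, as for Dex in GRD+L/D+L (-0.54 to 0.63 over single libraries left out). Calls were made only in GRD+L/D+L against GRwt/wt, where 12 of 17 counts held with vehicle and 9 of 16 with Dex. All other main counts were 0. Without GRwt/wt vehicle replicates 1 and 3, which leaves replicate 2 alone in that arm, the median LFC was 0.17 for Dex in GRwt/wt, -0.058 in GRD/D and 0.42 in GRL/L with vehicle, and 0.21 and -0.16 for the GRD/D and GRL/L interactions. With vehicle, Birc5 was then 0.25 for GRL/L and 0.20 for GRD+L/D+L, and in GRD+L/D+L Rrm2 was -1.04 and E2f8 2.19. By adjusted p alone 1 gene passed for GRL/L and 2 for GRD+L/D+L with vehicle. In GRD+L/D+L, fitting only the genotypes compared left 0 calls with vehicle and 0 with Dex, and 0 were left with Dex without the filter or with exon length offsets. Over single libraries left out, calls ranged from 0 to 5 for GRL/L and 1 to 4 for GRD+L/D+L with vehicle, and from 0 to 1 in either with Dex. Medians ranged from -0.45 to 0.10 for Dex in GRwt/wt, from 0.24 to 0.85 for the GRD/D interaction, -0.14 to 0.40 for GRL/L and -0.22 to 0.76 for GRD+L/D+L. Signs turned for Mki67 (-0.78 to 1.29) and Gins1 (-1.03 to 0.28) with Dex in GRD+L/D+L, Wee1 with Dex in GRL/L (-0.079 to 0.040), Cenpe in GRD/D with vehicle (-0.10 to 1.76), and the interactions of E2f8 in GRD/D (-0.67 to 0.097) and Cenpa in GRD+L/D+L (-0.013 to 1.53). The causes were not tested. With the replicate block, counts of called members were as without it in all 13 comparisons. For Dex in GRwt/wt, where numbers did not pair the libraries, 8 rather than 1 were under an unadjusted p of 0.05 (17.4%, against 24.5% of all genes). In GRD+L/D+L against GRwt/wt, the block was the number alone. There E2f8 with vehicle was at 1.41 (edgeR adjusted p = 0.0234) and Rrm2 with Dex at -1.02 (edgeR adjusted p = 0.0451). Kif11 had 6 counts in its lowest library, GRwt/wt vehicle replicate 1, so its level there is imprecise.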
